A study of Arabidopsis thaliana with 12 samples.

Results

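The genes described here had a higher mean intensity in wild-type Arabidopsis than in the flu mutant, where they were dim. They were chosen by their deposited intensities: the mean of the 6 WT arrays was at least 0.7 and the mean of the 6 flu arrays was below 0.35. Of 3439 probes, 68 met both thresholds. Probes that list any of 18 genes left out by name were set aside (9 probes, 7 with 1 gene and 2 with several), which left 59 member probes. Of the 59, only 7 have exactly 1 gene in the platform annotation and can be named, 14 list several genes, and 38 are not listed there. Because the values of this contrast chose the members, their differences are given as a description, without a test.

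RNA was measured on 12 arrays of Arabidopsis thaliana, 6 of the flu mutant and 6 of WT, both of ecotype Landsberg. The mutant is defective in FLU. Plants had spent 12 h in darkness and were collected 30 min into the next light period, so a difference may have been there before the light. The labels name neither the organ nor whether arrays came from separate plants, so spreads may be technical. Neighbouring arrays of a group (1 with 2, 3 with 4, 5 with 6) were alike and were averaged, so every SD is over 3 pair means.

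FLU is a plastid protein that holds back the synthesis of chlorophyll precursors in the dark. In its absence protochlorophyllide builds up at night, and on illumination this pigment passes energy to oxygen, giving singlet oxygen inside the chloroplast. Singlet oxygen is short-lived, and its effects on nuclear genes run through signals from the plastid to the nucleus. Of the probes with 1 gene that met both thresholds, 7 were left out by name. No pathway was assigned to the 7 named genes, which are known here by protein family or not at all. As background from general gene family knowledge, they include an RNA-binding protein, a factor of the mitochondrial transcription termination family, a nitroreductase-type enzyme, an NAD(P)-binding Rossmann-fold protein and a kelch-repeat protein.

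The array sums lay between 3247 and 3321 in WT and between 3267 and 3350 in flu. The array medians lay between 0.443 and 0.491 in WT and between 0.426 and 0.442 in flu, so every flu array had a lower median than every WT array. Over all 3370 probes with both means above 0, the median log2 ratio of WT over flu was 0.26. The files give no detection flag. Since 40.3% of all probes had a flu mean below 0.35, and 30.2% a WT mean of at least 0.7, the members are called dim in flu here and not absent. Of the green tissue genes, 7 had a probe of their own, and without a test the mean was higher in flu for 4 (LHB1B2, PSBW, PSBY and SBPASE) and higher in WT for 3 (PSAN, PSB27 and PRK). The antenna gene LHB1B2 stood at 17.5 in WT and 18.4 in flu, and PRK, phosphoribulokinase of the Calvin cycle, at 0.916 and 0.503. No root or flower marker chosen for the purpose (0 probes) had a probe of its own, and 0 probes list FLU, so the genotype could not be checked on its transcript.

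The 7 named genes come from unlike protein families or have no role given, and they were not sorted into classes of function. Their folds of WT over flu ran from 2.20 to 3.08, with a median log2 ratio of 1.37. The thresholds of the rule place every member above the 0.26 median of all probes in advance. The 7 lay above it by 0.88 to 1.36 on the log2 scale, which describes the selection only. WT was above flu at all 6 array numbers for each of the 7. The rule makes this likely and the share over all probes was not counted, so nothing is read from it.

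UBA1A encodes a nuclear RNA-binding protein first described as a partner of the plant RNA-binding protein UBP1. Its intensity ran from 0.612 to 0.979 in WT, with a median of 0.754, and from 0.181 to 0.369 in flu, with a median of 0.268. The highest WT values were arrays 1 and 2 and the lowest array 4, which was also the lowest in flu, and the groups did not overlap. The means were 0.787 ± 0.171 in WT and 0.278 ± 0.046 in flu (SD, n = 3 pair means), a fold of 2.83. Between the 3 pairs of same-numbered arrays, the fold ran from 2.39 to 3.34.

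AT3G46950 belongs to the mTERF family, whose members act on organelle transcription and RNA. It ran from 0.665 to 1.04 in WT, with a median of 0.920, and from 0.299 to 0.388 in flu, with a median of 0.329. Array 1 was the low one in WT, and even it lay above every flu array. The means were 0.892 ± 0.123 in WT and 0.333 ± 0.034 in flu (SD, n = 3 pair means), a fold of 2.68. A further probe lists this gene together with other genes and was not used for it.

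AT1G02020 encodes a protein of the nitroreductase family, flavin enzymes that reduce nitrogen-containing and related substrates with NAD(P)H. It had the largest fold of the 7, 3.08. Its WT values ran from 0.803 to 1.02, with a median of 0.946, and its flu values from 0.216 to 0.374, with a median of 0.312. The lowest WT array, array 4, lay above the highest flu array, array 1, by more than the whole range of either group. The means were 0.928 ± 0.098 in WT and 0.301 ± 0.015 in flu (SD, n = 3 pair means), and the fold ran from 2.84 to 3.44 between pairs.

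AT4G20760, of the Rossmann-fold proteins that bind NAD(P), lay nearest the WT threshold. It ran from 0.619 to 0.834 in WT, with a median of 0.662, and from 0.241 to 0.401 in flu, with a median of 0.305. The WT mean owed its place above 0.7 to arrays 5 and 6, at 0.834 and 0.813, since the other 4 WT arrays were between 0.619 and 0.669. The means were 0.705 ± 0.103 in WT and 0.315 ± 0.046 in flu (SD, n = 3 pair means), a fold of 2.23, with 1.83 to 3.10 between pairs. The groups did not overlap.

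AT3G06570 encodes a kelch-repeat protein, a fold built of repeated blades that is common in plant F-box proteins. It ran from 0.557 to 1.06 in WT, with a median of 0.635, and from 0.295 to 0.444 in flu, with a median of 0.308. Arrays 1 and 2, at 0.875 and 1.06, carried the WT mean over the threshold, and flu array 6 stood above the other 5 flu arrays. The means were 0.725 ± 0.213 in WT and 0.329 ± 0.037 in flu (SD, n = 3 pair means). The fold of 2.20 was the smallest of the 7 and the least even, from 1.56 for arrays 5 and 6 to 3.15 for arrays 1 and 2.

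AT2G48090, for which no role is given, ran from 0.578 to 0.841 in WT, with a median of 0.727, and from 0.224 to 0.344 in flu, with a median of 0.279. Its groups did not overlap, and its WT pair means were the closest together of the 7 named genes. The means were 0.719 ± 0.063 in WT and 0.278 ± 0.034 in flu (SD, n = 3 pair means), a fold of 2.59.

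AT5G59060, likewise given no role, was the 1 named gene whose groups overlapped. On array 4 it stood at 0.039 in WT and at 0 in flu, and on the other 5 array numbers WT lay between 0.585 and 1.19 and flu between 0.293 and 0.507. The 2 genotypes were thus low on the array of the same number. Within those 5 numbers the fold reached 3.21 on array 6, and between the 3 pairs it ran from 2.13 to 2.62. The means were 0.767 ± 0.409 in WT and 0.320 ± 0.165 in flu (SD, n = 3 pair means), a fold of 2.40. Without array 4 the means were 0.913 and 0.384, so that the gene was no longer below the flu threshold.

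Over all 59 members the WT mean had a median of 0.778 and reached 1.61, and the flu mean lay between 0.170 and 0.345 with a median of 0.289. The fold of WT over flu ran from 2.11 to 5.44 with a median of 2.74. The sum of the 59 intensities was 46.2 to 54.2 per WT array and 16.2 to 17.3 per flu array. Of the 354 flu readings, 284 were below 0.35 and only 5 were at 0, which came from 2 probes.

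The groups of 55 of the 59 members, and of 6 of the 7 named genes, did not overlap. Over all 3439 probes the 6 WT arrays lay above all 6 flu arrays for 24.6%, and among the 1040 probes with a WT mean of at least 0.7 for 40.7%. Since the rule used this contrast, nothing is read from the members' count. For the whole table, limma called 669 of 3128 tested probes lower in flu (21.4%) and 547 higher, 38.9% in either direction.

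The largest folds came from probes that cannot be named. Probe 1430, not listed in the annotation, ran from 0.986 to 2.24 in WT and from 0.181 to 0.387 in flu, a fold of 5.44. Probe 2397, which lists more than 1 gene, had a fold of 5.42, with WT arrays 3 and 4 at 2.05 and 2.23 and WT array 5 at 0.562. Its coefficient of variation over the WT pair means, 55.6%, was the highest of the 59 members.

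Besides AT5G59060, 3 members had overlapping groups. Probe 178 read 0 on flu arrays 3 to 6 and 0.782 on flu array 1, above WT arrays 1 and 2 at 0.735 and 0.477. Probe 254 was lowest on array 3 in both genotypes, at 0.336 in WT and 0.087 in flu. Probe 3172 was lowest on array 1 in both, at 0.259 in WT and 0.080 in flu. In 3 of these 4 members, then, the low reading fell on the same array number in WT and flu.

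Many members were brightest on the same WT arrays, which are among those whose mean the rule used, so this too is a description. The mean of WT arrays 1 and 2 was the highest of the 3 WT pair means for 38 of the 59 members (64.4%) and for 5 of the 7 named genes, all but AT3G46950 and AT4G20760. It was the highest for 40.1% of the 725 other probes whose WT mean lay between 0.7 and the members' highest. In flu, arrays 1 and 2 were the highest pair for 18 of the 59 members. The coefficient of variation over the 3 WT pair means had a median of 14.6% in the members and 19.6% in the 725 other probes. Without arrays 1 and 2, 63 probes met the rule and 41 of them were among the 59. Only 3 of the 7 named genes met it then, AT1G02020, AT3G46950 and AT4G20760. UBA1A, AT5G59060, AT3G06570 and AT2G48090 did not, with WT means of 0.694, 0.599, 0.602 and 0.685.

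Just inside the WT threshold lay AT4G20760, AT2G48090 and AT3G06570, with WT means of 0.705, 0.719 and 0.725. Just outside it, with a flu mean below 0.35, lay AT4G16410, AT4G30740 and AT2G25640, with WT means of 0.670, 0.654 and 0.636. Their flu means were 0.344, 0.218 and 0.264, so AT4G30740 had a log2 ratio of 1.59, larger than that of 6 of the 7 named genes. Just inside the flu threshold lay AT3G46950, AT3G06570 and AT5G59060, with flu means of 0.333, 0.329 and 0.320. Just outside it lay AT2G06040, AT5G03900 and AT4G33500, with flu means of 0.353, 0.354 and 0.356 and folds of 2.09, 2.07 and 2.67. The thresholds thus divide genes with like values. The mirror image of the rule, flu at least 0.7 and WT below 0.35, held for 61 probes. The like count for the rule, before any gene was left out by name, was 68.

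The place of a probe in the numbering went with its difference between the genotypes, and the members were unevenly spread over it. Differences over all probes recur along the numbering with a fixed period, which was found on these same differences, and this period was divided into 6 equal stretches of 48 probe numbers. The first stretch held 35.6% of the members and the second 25.4%, against 16.5% and 15.7% of all probes, and against 24.2% and 21.5% of the probes with a WT mean of at least 0.7. In these 2 stretches the median log2 difference of flu minus WT over all tested probes was -0.40 and -0.34. In the next 3 stretches it was 0.16 to 0.22, and these held 11 of the 59 members. UBA1A and AT3G46950 lie in the first stretch, AT3G06570 in the fourth, AT4G20760 in the fifth, and AT1G02020, AT2G48090 and AT5G59060 in the last. None of the 59 members has a number divisible by 6 (0 members), where 7.59% of all probes and 2.88% of the probes with a WT mean of at least 0.7 do.

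With the median difference at the same place in the period taken out of the flu mean, 28 probes met the rule, 18 of them among the 59, and 4 of the 7 named genes stayed. Each median was taken over the tested probes at that place, the members there included. The members' own chosen difference thus entered what was taken out. Some loss of members and some fall in their ratios were therefore built in, and how much was not measured. AT1G02020 stood at a log2 ratio of 1.67 in place of 1.62. UBA1A stood at 1.15, AT3G46950 at 1.11 in place of 1.42 and AT2G48090 at 1.06 in place of 1.37. With this correction the log2 ratios of WT over flu for the 7 ran from 0.98 to 1.67. The thresholds of the rule and the small medians taken out for the 7, from -0.35 to 0.04, fixed their direction in advance. Nothing is read from it. The named genes lie where the median difference taken out is smaller, with a median of -0.16 against -0.43 over all 59 members. On the quantile normalised and floored log2 scale, on which that difference was estimated, the median log2 ratio of the 59 went from 1.28 to 0.83 with the correction, and the lowest from 0.94 to 0.09. No source used here says whether the numbering follows the position of the spots.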

How the data were processed

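Values came from the deposited series table, with 1 intensity on a linear scale from 0 to 100 per probe and array. How the authors scanned, background-corrected and scaled these intensities is not stated in the labels or the file. Members were chosen on these deposited intensities as they stand. The members, gene lists and tests were chosen with earlier results of these data known. Every member with 1 annotated gene was named, beside the 3 genes nearest inside and outside each threshold. Symbols were updated through the TAIR10.1 gene table, which matched 690 of 692 probes with 1 gene. No coordinates or sequences were used. The gene table holds no descriptions, so counting genes by description words was not done, nor was the planned search of promoters.

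For the background over the whole table, arrays were quantile normalised, raised to a floor at the 25th percentile of all values (0.250) and log2-transformed. Of all probes, 311 never exceeded the floor and stayed out of the test. The fit used limma 3.58.1 under R 4.3.3 on pair means (lmFit, then eBayes; two-sided; Benjamini-Hochberg adjustment over 3128 probes; threshold 0.05), and the code was tested on simulated data. Neighbouring arrays of a group (1 and 2, 3 and 4, 5 and 6) had deviations from the group mean that correlated at 0.21 to 0.68, so each such pair was averaged. Other arrays of the group correlated at -0.55 to -0.04, though deviations from a shared mean lean negative by construction. Arrays of the same number in the other genotype correlated at 0.23 to 0.46. Same-numbered pair means of WT and flu correlated at 0.46, 0.38 and 0.26, so they deviated together. This comes from the data and from no label. Arrays of unlike number were not compared between the genotypes, and why same-numbered ones deviated together was not tested. The main fit left the pairing by number out, and the count with a replicate block for it is given below. The number of arrays limits the precision.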

Additional observations from a re-analysis of the deposited data

Results flagged for a closer look

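In flu, AT3G06570 read 0.444 on array 6, set apart from the next highest flu array at 0.321 by 82.0% of the group's whole range. It was the 1 case among 16 sets of 6 arrays examined that passed the cut-off of Dixon's ratio, the gap over the whole range. The chance rate of about 1 in 20 that goes with this cut-off needs 6 independent readings. Neighbouring arrays of a group were alike, so that rate does not hold here and the case is given as a description. WT array 6 of this gene, at 0.603, was still higher.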

How the results depend on the processing

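The number of probes that met the rule depended most on the thresholds and on the correction for the numbering, in which some loss of members was built in. It was 14 with WT at least 0.8 and flu below 0.3, which kept 0 of the 7 named genes, 181 with 0.6 and 0.4, and 28 with the dependence on probe number removed, against 59. Quantile normalisation gave 41 probes with 3 named genes (AT1G02020, UBA1A and AT5G59060), arrays scaled to one median gave 48 with 5, and medians of 6 arrays gave 63. Leaving out array numbers singly or in pairs gave 59 to 74 probes. AT1G02020 was the only named gene that met the rule under each of these settings other than the stricter thresholds. The median log2 ratio of the 7 was 1.37, 1.11 with the dependence on probe number removed, and 1.27 to 1.44 with array numbers left out. Over the 91 combinations of a named gene and a setting the log2 ratio of WT over flu ran from 0.83 to 1.68. The settings reuse the arrays on which the 7 were chosen, so the direction could hardly reverse and nothing is read from it. For the whole table, the replicate block called 1371 probes in place of 1216 and changed no statement on the members, which have no test. Removing the dependence on probe number left 427 probes lower in flu in place of 669. Leaving out 1 pair mean gave 840 to 1299 probes in all, 465 to 733 lower and 375 to 566 higher, and 12 separate arrays gave 1732. The members are dim in flu, so their ratios depend on how much background the deposited values still hold, which is not known.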
